A study of Mus musculus with 8 samples.

Results

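The genes described here are Mpo, Elane, Prtn3, Ctsg and Ms4a3, 4 of which encode proteins of the primary (azurophil) granule and 1 of which marks the precursors that make it. They were taken by symbol from the authors' deposited table of transcripts that changed between CD38high and CD38low cells, and are 5 of its 482 named genes and 5 of the 23332 probesets on each array. Because that table was chosen on the CD38high against CD38low contrast in these same arrays, the differences between the fractions are given below as a description, with no test. The study profiled splenocytes positive for both CD11b and Gr1, the surface phenotype of mouse myeloid-derived suppressor cells (MDSC), on 1-channel Affymetrix GeneChip arrays. The mice were 12 months old, of the genotype L2-Cre;p120f/f on a mixed C57BL/6x129 background, and bore esophageal tumors. Sorting split each spleen preparation into CD38high and CD38low cells, with 4 arrays per fraction from mouse 1, mouse 2, mouse 3 and 1 pool of 3 mice, so that the arrays form 4 pairs. All 8 arrays thus share the floxed p120 allele, the Cre transgene and the tumor. No array of a tumor-free mouse or of cells outside the CD11b+Gr1+ gate was part of the comparison, and the labels do not say whether the pooled mice were others than mice 1 to 3. As background, L2-Cre acts in squamous epithelium of the mouth and esophagus, so p120-catenin is lost there and not by design in the sorted myeloid cells.

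Neutrophils make their granules in sequence. Primary granules are filled at the promyelocyte stage, and the genes for their contents are strongly transcribed there and switched off as the cell matures, while their proteins stay in the granules. Secondary and tertiary granules are filled later, and receptors of the mature cell come last. High transcript levels of Mpo, Elane, Prtn3 and Ctsg are therefore typical of early granulocyte precursors. Whether other cells in these fractions also carry them was not tested here. In tumor-bearing mice early granulocyte precursors can also be found in the spleen.

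The deposited values are log2 expression per probeset, with array medians between 6.92 and 7.10, and the number of arrays limits the precision. The Cd38 transcript was at 12.45 ± 0.15 in CD38high cells and 10.46 ± 0.57 in CD38low cells (SD, n = 4 each), higher in 4 of 4 pairs, which checks the labels of a sort on the CD38 protein and nothing more. The other sort antigens have no named row here, so the CD11b+Gr1+ phenotype could not be checked. Over all 23332 probesets, an unpaired limma fit at a Benjamini-Hochberg adjusted p under 0.05 called 6.88% lower in CD38high cells. With mouse or pool as a replicate block it called 9.87% lower. The unpaired count of lower probesets, 1606, came down to 427 without mouse 1, 960 without mouse 3 and 752 without the pool. It was 832 with only the CD38high array of mouse 1 removed and 974 with only that of the pool removed.

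The genes lie on 4 chromosomes of the mouse. Prtn3 and Elane are neighbours on chromosome 10, followed by Cfd, the gene of complement factor D. Mpo lies on chromosome 11 beside Lpo, another peroxidase gene, Ctsg on chromosome 14 between the mast cell protease gene Mcpt8 and the granzyme gene Gzme, and Ms4a3 on chromosome 19 beside Ms4a2. Their promoters are shown as a description only. All 5 genes were lower in the same fraction, as were 362 of the 482 named genes, and a link between promoter and direction was not tested. Each window is RefSeq's for the build GRCm38.p6 and runs from 250 bases before to 50 bases after the annotated gene start, and all 5 genes matched 1 window. Capitals mark GAGGAA, the core of a binding motif of PU.1, an ETS factor of the myeloid lineage.
Prtn3 promoter, chr10:79879417-79879716, plus strand: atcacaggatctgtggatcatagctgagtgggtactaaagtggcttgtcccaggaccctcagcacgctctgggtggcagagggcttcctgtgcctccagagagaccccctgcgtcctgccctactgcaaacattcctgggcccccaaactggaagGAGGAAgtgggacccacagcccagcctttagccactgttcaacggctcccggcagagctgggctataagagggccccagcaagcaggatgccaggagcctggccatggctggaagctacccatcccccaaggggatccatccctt
Elane promoter, chr10:79886062-79886361, plus strand: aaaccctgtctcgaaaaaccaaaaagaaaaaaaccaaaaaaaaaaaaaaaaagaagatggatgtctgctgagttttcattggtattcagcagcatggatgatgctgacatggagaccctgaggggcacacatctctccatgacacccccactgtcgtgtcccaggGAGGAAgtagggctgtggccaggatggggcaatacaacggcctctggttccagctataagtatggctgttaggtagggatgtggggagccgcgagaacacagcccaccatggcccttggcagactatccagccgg
Mpo promoter, chr11:87793534-87793833, plus strand: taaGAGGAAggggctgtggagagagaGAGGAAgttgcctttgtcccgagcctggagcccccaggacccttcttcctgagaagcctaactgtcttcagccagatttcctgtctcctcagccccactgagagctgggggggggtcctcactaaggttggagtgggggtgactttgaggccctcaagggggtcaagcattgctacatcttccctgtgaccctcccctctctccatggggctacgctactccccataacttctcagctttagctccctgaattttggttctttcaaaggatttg
Ctsg promoter, chr14:56102525-56102824, minus strand: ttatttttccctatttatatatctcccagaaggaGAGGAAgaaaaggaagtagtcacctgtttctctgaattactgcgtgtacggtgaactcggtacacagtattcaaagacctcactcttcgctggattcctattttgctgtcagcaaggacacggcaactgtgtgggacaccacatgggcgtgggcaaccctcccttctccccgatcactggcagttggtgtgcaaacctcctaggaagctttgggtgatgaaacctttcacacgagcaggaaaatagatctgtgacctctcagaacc
Ms4a3 promoter, chr19:11640802-11641101, minus strand: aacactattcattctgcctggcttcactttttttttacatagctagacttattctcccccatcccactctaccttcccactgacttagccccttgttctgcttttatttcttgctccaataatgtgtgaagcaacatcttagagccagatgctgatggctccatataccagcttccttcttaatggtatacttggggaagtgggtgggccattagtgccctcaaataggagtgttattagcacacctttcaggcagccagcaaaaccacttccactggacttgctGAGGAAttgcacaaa
Searched on both strands, the letters GAGGAA were found in 5 of 5 windows and in 28.3% of all 32851 windows of 300 bases. In the 5 windows these letters lay on the gene's own strand. In Prtn3 and Elane they began 95 and 85 bases before the start. Mpo held them at 247 and 224 bases and Ctsg at 216 bases before the start, while in Ms4a3 they began at base 36 of the transcript. The Myb motif AACNGNC was found in Elane (50 and 22 bases before the start), Mpo (165 bases) and Ctsg (38 bases), 3 of 5 windows against 32.8% of all windows. The C/EBP motif TTNNGNAA was found in Ms4a3 alone, as TTGGGGAA at 59 bases before the start and as TTGCACAA, on the opposite strand, from base 42 of the transcript, against 40.7% of all windows. The RUNX motif TGTGGT was in Ctsg (16.8% of all windows), the GFI1 core AAATC in Mpo (35.9%), and the TATA box letters TATAAA in Ctsg, 237 bases before the start and on the opposite strand (13.6%). All motifs were searched on both strands as the letters given, and no match overlapped another. Variants were not counted, such as TATAAG, which stands in the Prtn3 and Elane windows. These matches are letters in a window and no measured binding.

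All 5 genes were lower in CD38high than in CD38low cells, by 3.18-fold to 5.26-fold, with a median log2 difference of -2.10. Every CD38high array lay below every CD38low array for 5 of 5 genes, as it did for 9.37% of all probesets. All 5 differed by more than the 2-fold minimum of the deposited table, which 2.22% of all probesets met in this direction. Both shares only place the genes, since the same contrast chose them. In a sorted population, fewer cells of a type and less RNA per cell cannot be told apart.

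**Figure D1:**
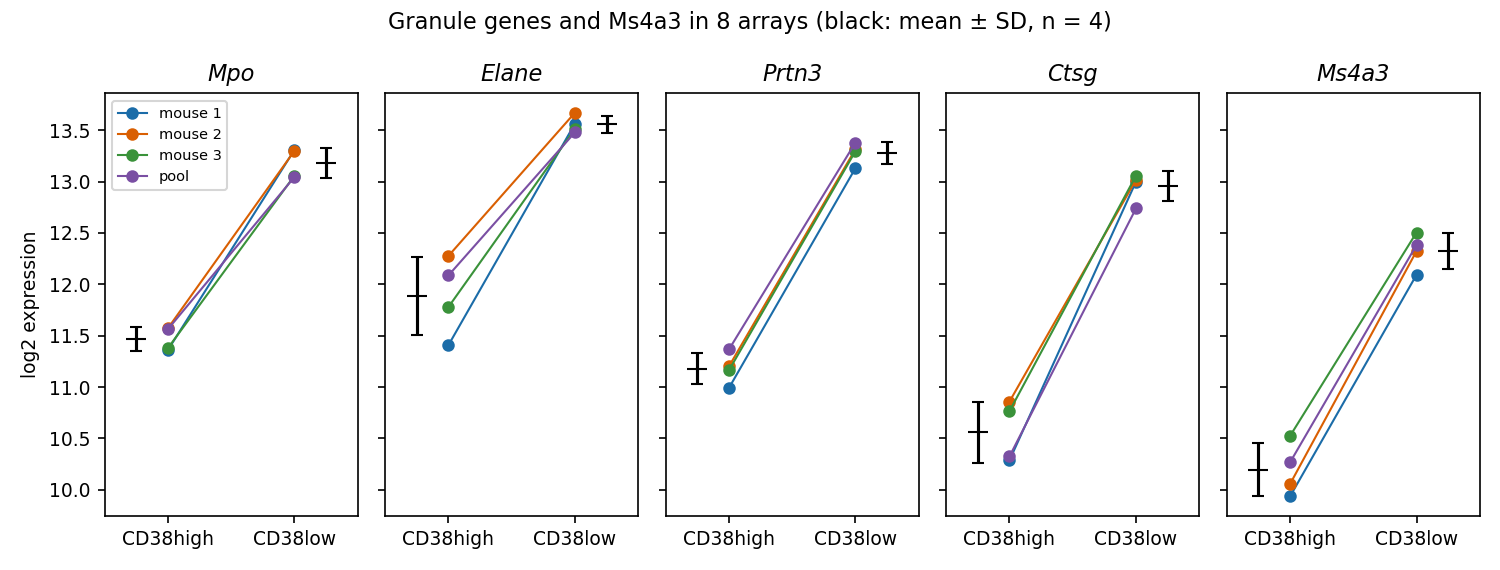
Log2 expression of the 5 genes in each array, CD38high left and CD38low right, with lines joining the fractions of a mouse or the pool and black marks for the mean ± SD (n = 4). Each gene is lower in CD38high in all 4 pairs, and the fractions do not overlap.

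Among the serine proteases of the granule, Ctsg (probeset 6824867) differed the most. Ctsg encodes cathepsin G, a chymotrypsin-like protease that is activated by removal of a dipeptide. Its log2 expression was 10.29, 10.86, 10.77 and 10.32 in CD38high cells of mice 1, 2 and 3 and the pool, against 12.999, 13.02, 13.06 and 12.74 in their CD38low cells. The lowest CD38low value, in the pool, still stood 1.88 above the highest CD38high value, in mouse 2. The means were 10.56 ± 0.29 in CD38high and 12.95 ± 0.15 in CD38low cells (SD, n = 4 each), a log2 difference of -2.39, or 5.26-fold lower.

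Prtn3 (probeset 6769154) encodes proteinase 3, which in humans is the main target of the autoantibodies of granulomatosis with polyangiitis. Prtn3 stood at 10.99, 11.20, 11.16 and 11.37 in CD38high cells and at 13.13, 13.32, 13.30 and 13.38 in CD38low cells, in the order mouse 1, 2, 3 and pool. The means were 11.18 ± 0.15 in CD38high and 13.28 ± 0.11 in CD38low cells (SD, n = 4 each), a difference of -2.10, or 4.29-fold lower. Of the 5 genes it had the most even difference from pair to pair, at -2.14, -2.11 and -2.13 in the mice and -2.01 in the pool (SD 0.06).

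Elane (probeset 6769156), the next gene on the chromosome, encodes neutrophil elastase, mutated in human cyclic and severe congenital neutropenia. Its CD38high values were 11.41, 12.28, 11.78 and 12.09, against 13.56, 13.67, 13.51 and 13.48 in CD38low cells. The spread differed between the fractions, with an SD of 0.38 in CD38high and 0.08 in CD38low cells (n = 4 each), and this difference in spread was not tested. The mean difference was -1.67, or 3.18-fold lower in CD38high cells, and it ran from -2.16 in mouse 1 to -1.39 in both mouse 2 and the pool. The SD of the difference over the 4 pairs was 0.36, against 0.06 for the neighbouring gene Prtn3.

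Mpo (probeset 6783338) encodes myeloperoxidase, the heme enzyme that makes hypochlorous acid from hydrogen peroxide and chloride. It stood at 11.36, 11.57, 11.38 and 11.56 in CD38high cells, against 13.31, 13.30, 13.06 and 13.04 in CD38low cells. The mean was 11.47 ± 0.11 in CD38high and 13.18 ± 0.15 in CD38low cells (SD, n = 4 each), a difference of -1.71, or 3.27-fold lower. Within CD38low cells, mice 1 and 2 were above mouse 3 and the pool.

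Ms4a3 (probeset 6871570) encodes a membrane protein with 4 spans and is known in mice as a marker of granulocyte-monocyte progenitors and their progeny; it is not a granule protein. Its values were 9.93, 10.06, 10.52 and 10.27 in CD38high cells and 12.09, 12.32, 12.50 and 12.38 in CD38low cells. The means were 10.19 ± 0.26 in CD38high and 12.33 ± 0.17 in CD38low cells (SD, n = 4 each), a difference of -2.13, or 4.38-fold lower. Mouse 3 was highest and mouse 1 lowest in both fractions, an order that none of the granule genes showed.

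**Figure D2:**
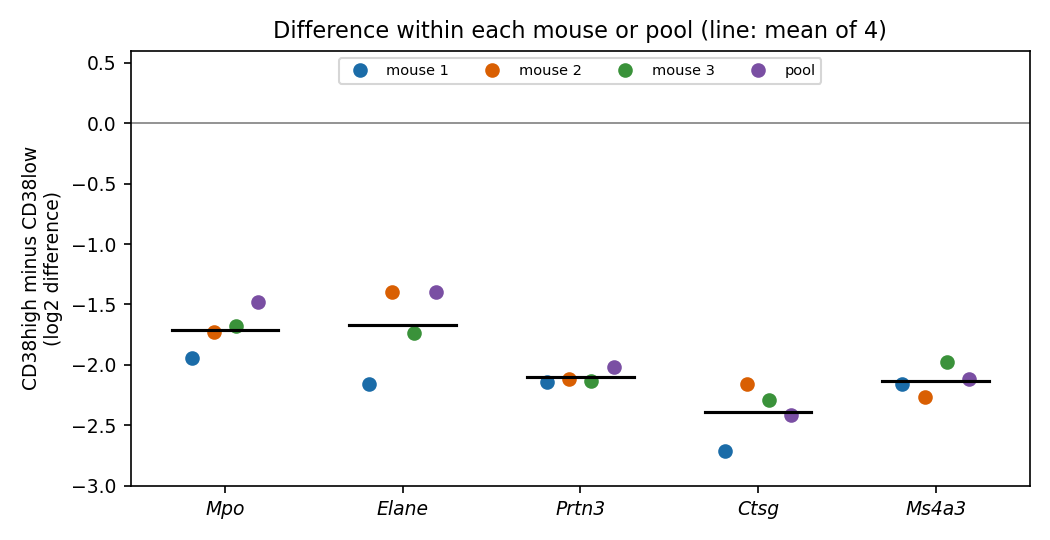
Log2 difference, CD38high minus CD38low, of each gene within each mouse or the pool (points), with the mean of the 4 pairs (line). All 20 points lie below 0, between -2.71 (Ctsg in mouse 1) and -1.39 (Elane in the pool).

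Ranked by the size of the difference within each pair, Ctsg came first in mouse 1, mouse 3 and the pool, and Ms4a3 in mouse 2 (-2.27 against -2.16 for Ctsg). The smallest difference was that of Mpo in mice 1 and 3 and that of Elane in mouse 2 and the pool. Mpo and Elane differed from each other by less than the spread of Elane over the pairs, and so did Prtn3 and Ms4a3 by less than the spread of Ms4a3. The median over the 5 genes was -2.16 in mouse 1, -2.11 in mouse 2, -1.98 in mouse 3 and -2.01 in the pool. In the same pairs Cd38 was higher by 1.68, 1.64, 2.05 and 2.62, so the pair with the widest Cd38 difference, the pool, was not the one with the widest median difference over the 5 genes. With 4 pairs no correlation is given.

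CD38low values of the granule genes lay near the top of the arrays' scale. The brightest probeset of a CD38low array was between 14.01 and 14.10. Elane was 0.43 to 0.59 below it, Prtn3 0.66 to 0.88, Mpo 0.70 to 1.04 and Ctsg 1.01 to 1.30, whereas Ms4a3 was 1.60 to 1.92 below. Elane and Mpo, with the smallest differences, were among the 3 genes closest to the top, and a compression of bright signals there was not tested.

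In the order by size of the 362 named genes that were lower, Ctsg had rank 4, Ms4a3 rank 9, Prtn3 rank 10, Mpo rank 38 and Elane rank 45. The median of these 362 genes was -1.25, and that of all 482 named genes -1.15, against -2.10 for the 5 genes and 0.04 for all probesets. The smallest lower difference in the table sat at its 2-fold threshold, well short of those of the 5 genes. Of all 23332 probesets, 55 (0.236%) were at least as low as Elane, the gene with the smallest difference of the 5.

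**Figure D3:**
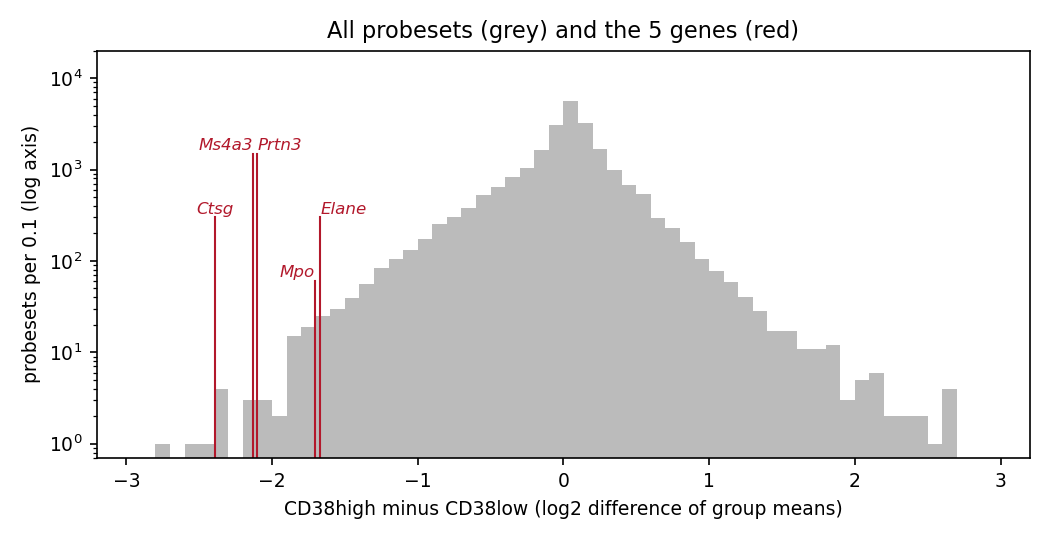
Distribution of the log2 difference, CD38high minus CD38low, over all 23332 probesets (grey bars, log axis), with the 5 genes as red lines. They lie between -2.39 and -1.67, where few probesets are found; the height of a red line has no meaning.

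Whether the genes stood at other levels in other animals was asked with an F test of mouse or pool in a limma fit that also held the fraction. This is a different contrast from the one that chose the genes, although a choice by an unpaired test favours genes with little spread between animals. None of the 5 passed (0 of 5, against 3.14% of all probesets), with adjusted p from 0.183 for Ms4a3 to 0.809 for Mpo in this limma test. At an unadjusted p under 0.05 there was 1 of 5, Ms4a3, against 21.5% of all probesets. That unadjusted result was not kept by Ms4a3 without mouse 1, where Ctsg was the 1 of 5 under 0.05, and there was 0 of 5 without mouse 3. Averaged over both fractions, Ms4a3 was at 11.01, 11.19, 11.51 and 11.32 in mice 1, 2, 3 and the pool, a range of 0.50. The range was 0.49 for Elane, 0.41 for Ctsg, 0.31 for Prtn3 and 0.22 for Mpo. Each range was smaller than that gene's difference between the fractions, which the choice of the genes on that contrast favours. A missed threshold does not show that the animals were alike, and the count of all probesets called by this test, 732, was 0 without mouse 2 and 0 without mouse 3, where 3287 and 4284 probesets had an unadjusted p under 0.05.

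Within a fraction, the array of CD38high cells from mouse 1 was the lowest of the 4 for 5 of 5 genes. It was also the lowest for 50.3% of the 362 named lower genes and for 20.9% of all probesets. Its deviation from the CD38high mean was -0.48 for Elane, -0.27 for Ctsg, -0.26 for Ms4a3, -0.19 for Prtn3 and -0.11 for Mpo. Mouse 1 also had the widest difference for 4 of the 5 genes, the exception being Ms4a3, and for 61.0% of the named lower genes. For Prtn3 the margin was small, at -2.14 against -2.13 in mouse 3. The share over all probesets was not computed for this measure. Without mouse 1 the differences were -1.51 for Elane, -1.63 for Mpo, -2.09 for Prtn3, -2.12 for Ms4a3 and -2.29 for Ctsg.

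**Figure D4:**
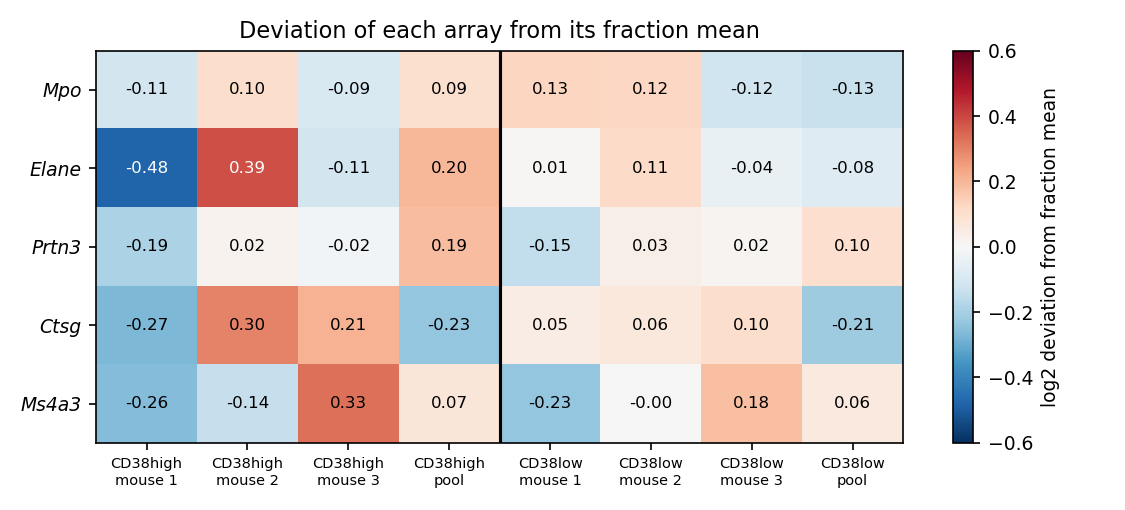
Deviation of each gene from its fraction mean in each array (log2; red above, blue below the mean). The CD38high array of mouse 1 is below the mean for all 5 genes, and the other arrays hold a mixture of signs.

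After subtracting the fraction means, which leaves 6 free values over the 8 arrays, the genes moved together only in part. Mpo and Elane had a Pearson r of 0.70, Elane and Prtn3 of 0.61, Prtn3 and Ms4a3 of 0.56 and Elane and Ctsg of 0.52. Mpo and Ms4a3 went apart at -0.40, and Prtn3 and Ctsg stood at -0.08. Over the 10 pairs of genes the median was 0.26, close to the 0.27 over all pairs of the 362 named lower genes, and it was -0.003 without mouse 1, 0.29 without mouse 2, 0.52 without mouse 3 and 0.57 without the pool. These correlations share arrays and normalization and carry no test.

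By Pearson r over the 8 arrays, the genes of the table most like the mean of the 5 were Rad54l, a DNA repair ATPase (r = 0.998), Sf3b3, a splicing factor subunit (0.996), Mcm6 (0.994) and Mcm3 (0.992), subunits of the replicative helicase, and Ctps, CTP synthase (0.993). Most of this likeness is the split between the fractions, on which all were chosen, and 208 of the 475 genes compared had an r above 0.95. With the fraction means subtracted, the genes most like were Asf1a, a histone chaperone (0.957), Mcm4 (0.942), the mitochondrial ribosomal protein genes Mrps18b (0.937) and Mrpl35 (0.924), and Orc6, a subunit of the origin recognition complex (0.919). Rad54l stood at 0.914 there, and the median over the 475 genes was 0.25. The mean of the 5 genes deviated by -0.26 in the CD38high array of mouse 1 and by at most 0.135 elsewhere. Asf1a, Mcm4, Mrps18b, Mrpl35 and Orc6 each had their lowest CD38high value in that array too. How far their likeness rests on it was not tested.

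Of a list of 18 primary granule genes, the 4 named were Ctsg, Prtn3, Mpo and Elane, and the other 14, which include Prss57, Ctsc and Bpi, have no named row and are not shown to be unchanged. Of 18 genes for surface proteins and transcription factors of granulocyte precursors, Ms4a3 and Myc were named and both were lower in CD38high cells, Myc at 7.94 ± 0.09 in CD38high and 8.94 ± 0.28 in CD38low cells (SD, n = 4 each). The named genes of later stages ran the other way, and those without a named row are not shown to be unchanged. Of 30 mature neutrophil genes 7 were named and all 7 were higher in CD38high cells, with a median of 1.19 (1.36 without the pool), led by Stfa3, a cysteine protease inhibitor (2.65), Prok2, a prokineticin (2.62), Il1rn, the interleukin 1 receptor antagonist (1.54), and Fpr1, a receptor for formylated peptides (1.19). Adam8, a protease stored in neutrophil granules, was the 1 named gene of 25 for secondary and tertiary granules, and was higher by 1.29. Of 40 proliferation genes 26 were named and all 26 were lower, with a median of -1.66, led by Hells (-2.53), Pole2 (-2.02), Mcm2 (-2.01) and Mcm6 (-1.95). Every named gene comes from a table chosen on this contrast, in which 362 of 482 genes were lower, so these counts are no independent support for a direction.

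Genes from lists of markers of other cell types also differed between the same fractions. With 1 gene named per list, these values do not show that such cells were present. Nkg7, a granule membrane protein, was the 1 named of 10 genes on the NK cell list. Which cells gave its signal was not tested. Nkg7 was at 9.51 ± 0.62 in CD38high and 11.92 ± 0.42 in CD38low cells (SD, n = 4 each). Within fractions it correlated at 0.74 with the mean of the 5 genes. Mgl2, a lectin of macrophages and dendritic cells and the 1 named of 18 monocyte and macrophage genes, was at 5.94 ± 0.33 in CD38high and 8.66 ± 0.31 in CD38low cells, with a within-fraction correlation of 0.46. Higher in CD38high cells were Cd79a, 1 of 11 B cell and plasma cell genes (2.16), Ccr7, 1 of 12 dendritic cell genes (1.36), Selp, 1 of 9 platelet genes (1.28), and Hdc, 1 of 11 basophil and mast cell genes (1.14), which is also counted among the 7 mature neutrophil genes above. No gene was named among 10 eosinophil, 10 T cell, 12 erythroid and 10 multipotent progenitor genes. The part of other cell types in the lower transcripts of the 5 genes was not tested.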

How the data were processed

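RNA of sorted cells was amplified, converted to biotin-labelled cDNA and hybridised to Affymetrix arrays, as the labels' protocols describe. The authors deposited log2 values for 23332 probesets and a table of 498 changed probesets with gene names. Affymetrix Power Tools, RMA and PLIER with build mm9 are named in the submitters' processing notes; the sources used here do not say which of RMA and PLIER gave the values. The deposited normalization was kept, and scanner files were not used here.

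Each of the 498 table rows equalled 1 probeset of the value table to 5 decimals. This named 484 rows and 482 genes, updated through RefSeq accessions (476 rows), symbols (3) or synonyms (4), with 1 kept. Of 2 probesets of a gene, the brighter was used. The member genes, gene lists, motifs and tests were chosen with earlier results of these data known. The text names the member genes, Cd38, up to 4 genes per list by size, and the 5 most alike by each measure.

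Groups came from the titles. limma 3.58.1 in R 4.3.3 (lmFit, eBayes) was fitted over all probesets, two-sided, with Benjamini-Hochberg adjustment at 0.05 and no block, as the two-sample test of the series design has none. Both fractions of a pair came from the same mouse or pool. Their deviations from the fraction means correlated at 0.345 to 0.675, so the fit with a replicate block is given where it differs. Alternatives were the block, quantile or median scaling, a filter on dim probesets, trended robust eBayes, a two-sample t-test and leaving out arrays or pairs. Plots and other calculations used Python 3.11.15, pandas 2.3.3, numpy 2.4.6 and matplotlib 3.10.9.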

Additional observations from a re-analysis of the deposited data

Results flagged for a closer look

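Dixon's test at the 95% level was applied to the 4 values of each fraction for the 31 genes named in the report by rule, 62 groups in all. It set 1 array apart in 3 groups, and chance gives about 3.1. None of the 3 belonged to Mpo, Elane, Prtn3, Ctsg or Ms4a3. Fpr1 in CD38high cells of mouse 3 was at 13.54, with the other CD38high arrays between 13.31 and 13.33. In CD38low cells of mouse 3, Mcm2 was at 10.81 against 10.43 to 10.48, and Ctps was at 8.04 against 7.74 to 7.79.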

How the results depend on the processing

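Each of the 4 granule genes and Ms4a3 was lower in CD38high cells under all alternatives run on single genes (105 values in all, of which 0 changed sign), and 103 moved by less than the SD over the 4 pairs. The other 2 were for Prtn3, at -2.04 and -2.16 without the CD38high array of mouse 1 or of the pool. Leaving out arrays could not reverse a sign, since every CD38high array lay below every CD38low array. The replicate block, the filter on dim probesets and trended robust eBayes leave a gene's difference as it is. The block with a pair left out repeats the values of the fit without the block. The kept sign is therefore no added support. The median of the 5, -2.10, was the same with the replicate block, which leaves mean differences as they are, and ran from -2.15 to -2.04 over arrays or pairs left out. Over all probesets, the 2479 that differed became 3929 with the replicate block. A two-sample t-test recomputed here, at p under 0.001 and at least 2-fold, found 351 (273 lower). The authors' table holds 498 probesets, so this t-test did not reproduce their selection, and the reason was not tested. After Benjamini-Hochberg adjustment the same t-test found 1598 (1053 lower). Without the block, the fits on fewer arrays found 540 to 2436 (427 to 1483 lower). With the block and a pair left out, which was chosen after seeing the data, the counts were 1942 to 2520 (1199 to 1597 lower). The 732 probesets that differed between mice and pool became 297 with arrays centred on their median and 1222 among probesets above the 20th percentile, and were 0 to 865 with a pair left out, with 0 of the same 5 genes called in each of these fits; the cause was not tested. The median correlation among the 5 genes lay between -0.003 and 0.567 with a pair left out. List medians moved by less than their spread over pairs, except that of the mature neutrophil genes, 1.14 to 1.36 with a pair left out. Precision is limited by 4 arrays per fraction, and signal over background could not be examined.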
